A study of Mus musculus with 14 samples.

Results

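The comparison set 2 lung libraries from irradiated mice carrying a human JAK1 gain of function (GOF) against 2 from irradiated wild-type (WT) mice, all of which had been given WT bone marrow. These 4 of the 14 libraries of the series were chosen because they make up its only marrow chimera experiment, and all 54347 genes of their table were considered. All mice were C57BL/6 and received the same dose of 1e+07 live marrow cells intravenously within 24 hours after irradiation. Both groups were then given intranasal Alternaria alternata, an extract of an airborne mould used to set off allergic lung inflammation, as 4 daily doses of 2 mg, each in 40 µl. The recipients' genotype, WT or human JAK1 GOF, was thus the only labelled difference between the groups. The mutation, the sequence that drives the human JAK1, and the sex and age of the mice are not given in the sources used here. Marrow-derived blood cells in both groups come from the WT donors, while the lung epithelium, vessels, stroma and nerves, and any leukocytes that outlive irradiation, keep the genotype of the recipient. The extent of chimerism was likewise not given.

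JAK1 is a tyrosine kinase bound to the inside of cytokine receptors, among them those of the common gamma chain, gp130, interferon and interleukin 10 families. On cytokine binding it phosphorylates STAT factors, which enter the nucleus and switch on target genes, including those of the SOCS proteins that shut the pathway down. In an allergen-exposed lung, interleukin 4 and interleukin 13 act through JAK1 and STAT6 to induce mucus production and alternatively activated macrophages, and interleukins 2, 7 and 9 act through JAK1 on lymphocytes.

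The libraries held 18198626 to 22325510 estimated counts and 23475 to 24413 genes with a count. A floor of 3 counts lay at 0.134 to 0.165 CPM, the counts per 1e+06 counts of a library, and such floors cover counting error only. Lung identity was plain in each library: Sftpc, the surfactant protein of alveolar type 2 cells, lay at 6088 and 6152 CPM in the WT recipients and 9202 and 7068 CPM in the GOF recipients, and Ager of type 1 cells, Scgb1a1 of club cells and Pecam1 of endothelium were at 2267 and 1889.8, 8181 and 6201 and 680.0 and 636 CPM in the WT and 2534 and 2295, 8825 and 10169.5 and 702 and 716 CPM in the GOF recipients. None of these 4 markers passed the test (edgeR adjusted p = 0.534, 0.713, 0.558 and 0.828). WT recipient 1 stood apart in a few transcripts, with Rps3a2 at 5.001 CPM against 0.191, 0.448 and 0 CPM in the other libraries of the experiment and Hmga2 at 1.29 CPM against 11.2, 5.38 and 12.0 CPM. GOF recipient 1 stood apart in the Y-linked Eif2s3y, at 18.1 CPM against 48.3 to 60.3 CPM, while the Y-linked Ddx3y lay between 57.6 and 74.6 CPM in all 4 libraries. Whether each library stands for its own mouse is not labelled, and the spread behind the p-values is therefore that of these 4 samples, which may be technical.

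Of 17298 genes tested, 124 passed the edgeR quasi-likelihood test at an adjusted p under 0.05 (0.717% of the genes tested), 30 of them higher (0.173%) and 94 lower (0.543%) in the GOF recipients. The groups did not overlap in any of the 124, but they also did not overlap in 7382 of all genes tested (42.7%). The median log2 fold change over all genes tested was 0.000451. Each gene below that is said to rise or fall was among the 124. Values per library are CPM, and each difference is a log2 fold change of GOF over WT recipients with its standard error. With 2 libraries in each group, single libraries decided many of the calls. The fit was therefore repeated with each library left out, and the results are given in the order WT recipient 1, WT recipient 2, GOF recipient 1 and GOF recipient 2 (WT 1, WT 2, GOF 1 and GOF 2). In this order 919, 303, 83 and 93 genes were called. Of the 124 genes, 122, 103, 42 and 54 remained in these fits, and 28 (8 higher and 20 lower) kept the call in all 4 of them.

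**Figure D1:**
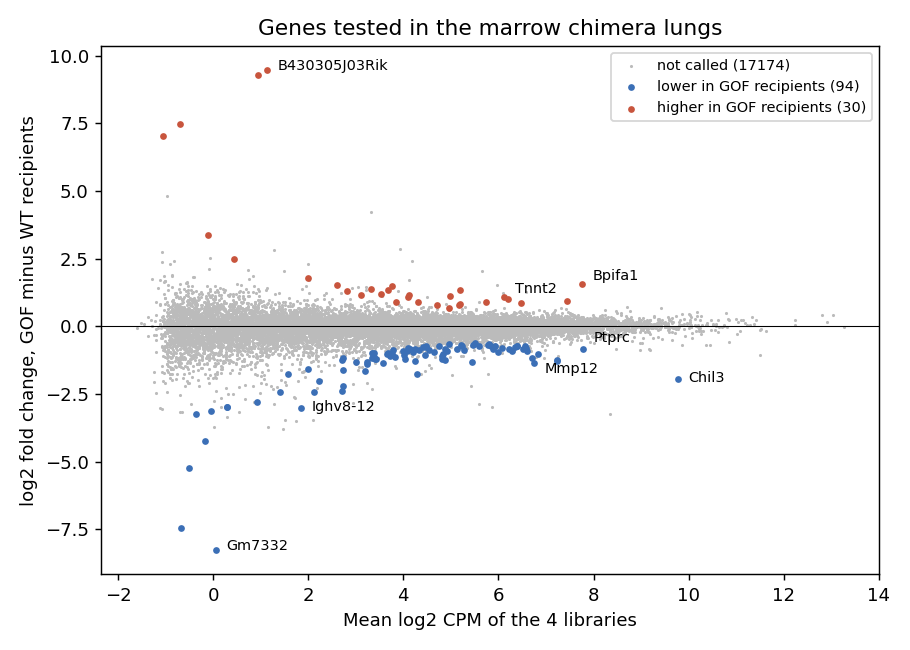
Log2 fold change of GOF over WT recipients (vertical axis) against the mean log2 CPM (horizontal axis) for the 17298 genes tested, with the 30 genes called higher and the 94 called lower in colour and some of them named. The lower calls lie in the middle range of expression, Chil3 standing out as an abundant one, and Bpifa1 and Tnnt2 are among the higher calls.

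**Figure D2:**
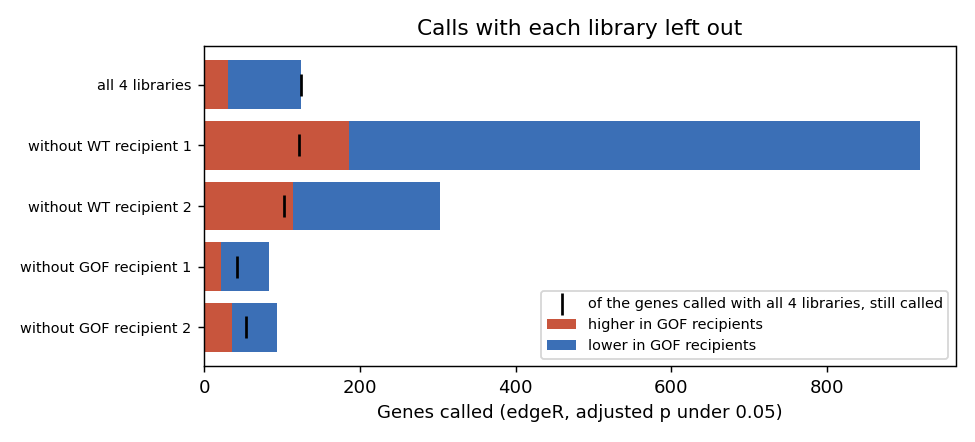
Number of genes called higher and lower with all 4 libraries and with each library left out. The count runs from 83 without GOF recipient 1 to 919 without WT recipient 1, and lower calls outnumber higher ones in each fit.

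Grouped by what they encode, a grouping made after the values were seen, the 94 genes that fell held 12 immunoglobulin genes, 26 lymphocyte receptors and signalling proteins, 25 genes of myeloid and dendritic cells, 17 adhesion and cytoskeletal proteins of leukocytes in general and 14 others. The 30 that rose held 13 genes of heart and striated muscle, 3 of airway epithelium, 2 of the circadian clock and 12 others. Ptprc, which encodes CD45 on nearly all leukocytes (chromosome 1, 138062861 to 138175708), was at 249 and 311 CPM in the WT recipients and 146 and 166 CPM in the GOF recipients. It fell by 0.84 on the log2 scale (SE 0.15, edgeR adjusted p = 0.0354), but not without WT recipient 2 or GOF recipient 1 (adjusted p = 0.0528 and 0.0899). In bulk lung, fewer cells of a type and less RNA per cell cannot be told apart.

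**Figure D3:**
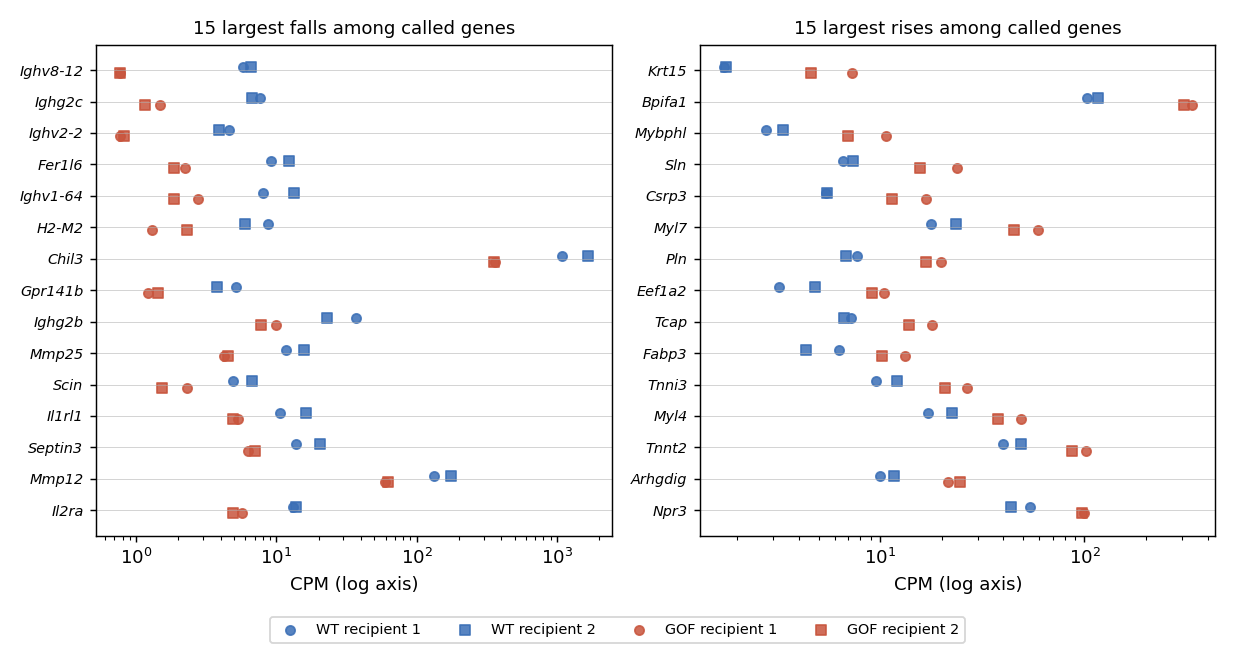
CPM per library (log axis) of the 15 called genes with the largest fall and the 15 with the largest rise among fully named genes whose mean log2 CPM was 1 or more, with 1 symbol per library. The falls are led by immunoglobulin genes, with Chil3 as the most abundant, and the rises by Krt15, Bpifa1 and heart muscle genes, and the groups are apart in each gene.

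The kinase itself was examined first. The mouse Jak1 gene (chromosome 4, 101152367 to 101265282, minus strand) had 256 and 281 CPM in the WT recipients and 204 and 191 CPM in the GOF recipients. Both GOF libraries were lower, but the difference of −0.43 ± 0.13 did not pass (edgeR adjusted p = 0.206). The human sequence has no row of its own, so the genotype label cannot be checked from these counts. Whether reads of the human sequence were counted under mouse Jak1 was not tested. None of the 11 JAK kinases and STAT factors passed, although all 11 had a negative log2 fold change, with a median of −0.30, and 5 had an unadjusted p under 0.05. DESeq2 called 1 of the 11 and limma voom 0, and edgeR called 4, 0, 0 and 0 with WT 1, WT 2, GOF 1 or GOF 2 left out.

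Jak2, which pairs with JAK1 on interferon gamma and gp130 receptors, was at 109 and 126 CPM in the WT and 77.98 and 84.5 CPM in the GOF recipients (−0.52 ± 0.13, edgeR adjusted p = 0.0998). Stat4, the interleukin 12 signal transducer of lymphocytes, had the largest negative value of the 11 (−0.91 ± 0.23, 0.115), followed by Stat5a, a transducer of interleukins 2 and 7 (−0.53 ± 0.15, 0.151). Neither passed, and Stat6, which carries the interleukin 4 and 13 signal, had almost the same level in all 4 libraries, 173 and 172 CPM in the WT and 169.7 and 167 CPM in the GOF recipients (−0.03 ± 0.12). Stat3, the main transducer of gp130 cytokines, was at −0.17 ± 0.15, and its groups overlapped, with 285 and 326 CPM in the WT and 246 and 292 CPM in the GOF recipients. Jak3, Tyk2, Stat2 and Stat5b lay at −0.06 ± 0.14, −0.30 ± 0.12, −0.11 ± 0.14 and −0.10 ± 0.12 (edgeR adjusted p = 0.915, 0.349, 0.824 and 0.792).

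Among feedback genes of the JAK-STAT pathway and interferon-stimulated genes, edgeR called 0. The 19 feedback genes were SOCS, PIAS and phosphatase genes and a few others, so the list is not one of STAT targets alone. Of these, 0 passed with edgeR, DESeq2 or limma voom, 1 had an unadjusted p under 0.05, and the median was −0.13. Socs3, induced by STAT3, was at 66.7 and 119.9 CPM in the WT and 85.7 and 85.4 CPM in the GOF recipients (−0.12 ± 0.30), and the GOF values lay between those of the 2 WT libraries. The same held for Cish, a STAT5 target, in part: GOF recipient 1 at 76.6 CPM lay between WT recipients 1 and 2 at 70.8 and 82.8 CPM, and GOF recipient 2 just below them at 67.1 CPM (−0.09 ± 0.13). Socs1, a brake on interferon signalling, lay at 6.19 and 11.8 CPM in the WT and 8.69 and 4.51 CPM in the GOF recipients (−0.43 ± 0.42), with overlapping groups. In the 32 interferon-stimulated genes edgeR called 0 and limma voom 0, DESeq2 called 2, 5 had an unadjusted p under 0.05, and the median was −0.16. With WT 1 left out edgeR called 3 of the feedback genes and 8 of the interferon-stimulated genes, and with any other library left out it called 0 of either list.

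The chains of the cytokine receptors that couple to JAK1 behaved unevenly. Of 26 tested, 4 fell and 0 rose, and the 4 are chains found mainly on leukocytes. Il7r, the interleukin 7 receptor of lymphocytes (chromosome 15, 9505788 to 9530176, minus strand), had 40.96 and 35.4 CPM in the WT and 16.1 and 19.6 CPM in the GOF recipients. Il2ra, the inducible interleukin 2 receptor chain, was at 13.1 and 13.8 CPM and 5.69 and 4.89 CPM, and Il21r, the interleukin 21 receptor, at 17.3 and 21.4 CPM and 9.003 and 8.79 CPM. All 3 were at about the same low level in both GOF libraries; they fell by 1.09, 1.33 and 1.11 on the log2 scale (SE 0.15, 0.20 and 0.18; edgeR adjusted p = 0.0123, 0.0181 and 0.0228) and stayed past the threshold in all 4 fits with a library left out. Il10ra, the interleukin 10 receptor chain, fell by 0.73 (edgeR adjusted p = 0.0443), but not without GOF recipient 2 (adjusted p = 0.111). Over the 26 chains the median was −0.18, and edgeR called 3 to 6 of them in the fits without 1 library, limma voom 2 and DESeq2 5.

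Of 20 genes of type 2 lymphocytes, that is type 2 innate lymphoid cells and T helper 2 cells, 4 fell, namely Il1rl1, Icos and the receptor chains Il7r and Il2ra already counted above, 17 were negative, and the median was −0.66. Il1rl1 encodes the receptor for the alarm cytokine interleukin 33 and lay at 10.7 and 16.2 CPM in the WT and 5.29 and 4.89 CPM in the GOF recipients (−1.39 ± 0.24, edgeR adjusted p = 0.0267). Icos, a costimulator of T cells and type 2 innate lymphoid cells, was at 17.1 and 18.4 and 10.3 and 9.23 CPM (−0.85 ± 0.17, 0.0461). Neither of these 2 was called without GOF recipient 1 (adjusted p = 0.0849 and 0.0848) or without GOF recipient 2 (0.0924 and 0.122). Gata3, the transcription factor that sets the type 2 program, was at 12.2 and 11.7 CPM in the WT and 9.32 and 10.3 CPM in the GOF recipients, and its difference of −0.28 ± 0.18 did not pass (0.611). With WT 1, WT 2, GOF 1 or GOF 2 left out, edgeR called 9, 5, 2 and 2 of the 20 genes.

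The type 2 cytokines themselves were at the edge of detection. Il5, the eosinophil growth factor, had 7 and 6 counts in the WT and 2 and 6 in the GOF recipients, Il13 had 9 and 23 against 9 and 3, and Il4 had 7 and 14 against 4 and 2, too few for the test, and Il9 had 0 in each library. A difference in these 4 cytokines was therefore not detectable at this depth. The alarm cytokine Il33 was at 100.3 and 209.9 CPM in the WT and 111 and 122 CPM in the GOF recipients (−0.41 ± 0.42, edgeR adjusted p = 0.791), with WT recipient 2 above the other 3 libraries, which were alike. Areg, a growth factor made by type 2 lymphocytes, was at −0.29 ± 0.22 and the alarm cytokine Tslp at 0.17 ± 0.37, and neither passed (0.672 and 0.91).

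All 25 T cell genes had a negative log2 fold change, with a median of −0.80, and 8 of them fell. Among them were Cd3e and Cd4, parts of the T cell receptor complex and its coreceptor, the surface molecule Cd6, the costimulator Icos, and Il2ra, Foxp3 and Ctla4, which mark regulatory T cells. Cd4 was at 21.1 and 22.9 CPM in the WT and 11.2 and 12.4 CPM in the GOF recipients, and Cd3e at 12.5 and 14.2 and 6.94 and 6.54 CPM. Foxp3, the factor that defines regulatory T cells, was at 10.3 and 12.4 CPM in the WT and 5.51 and 3.52 CPM in the GOF recipients. The 2 GOF libraries were low in each, by 0.89, 0.98 and 1.31 on the log2 scale (SE 0.16, 0.19 and 0.25; edgeR adjusted p = 0.0305, 0.0443 and 0.0407), and Ctla4, an inhibitory receptor, fell by 1.25 (0.0381).

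The summed T cell list came to 320 and 367 CPM in the WT and 227 and 162 CPM in the GOF recipients. EdgeR called 17, 12, 6 and 2 of the 25 genes with WT 1, WT 2, GOF 1 or GOF 2 left out, DESeq2 called 9 and limma voom 1. Signalling proteins that act behind lymphocyte antigen receptors were also among the falls: Rasgrp1, an activator of Ras, at −0.87 ± 0.15, Grap2, an adaptor, at −0.94 ± 0.16, Map4k1 at −0.77 ± 0.15, and Ikzf3, the lymphocyte transcription factor Aiolos, at −1.07 ± 0.20. Over the 26 lymphocyte genes that fell, the median was −1.02. Of these calls 18 ended with GOF 1 left out (edgeR adjusted p = 0.0513 to 0.134), 19 with GOF 2 (0.0569 to 0.155), 3 with WT 2 (0.0531 to 0.0928) and 0 with WT 1. Il2ra, Il7r and Il21r were the 3 that kept the call throughout.

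Of 17 natural killer and cytotoxic genes edgeR called 0, with 5 at an unadjusted p under 0.05, and DESeq2 called 1 and limma voom 0, while the median was −0.67 and 16 were negative. Klrk1, the activating receptor NKG2D, had the smallest p (8.67 and 9.57 CPM in the WT and 4.97 and 3.63 CPM in the GOF recipients; −1.07 ± 0.23, edgeR adjusted p = 0.0663). Leaving out WT 1, WT 2, GOF 1 or GOF 2 gave 5, 0, 1 and 0 calls.

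In the B cell list 17 of 18 genes were negative and the median was −0.73, but 1 fell. This was Fcer2a, the low-affinity receptor for IgE, at 21.8 and 26.9 CPM in the WT and 14.3 and 12.6 CPM in the GOF recipients (−0.84 ± 0.17, edgeR adjusted p = 0.0463); it was not called without WT recipient 2, GOF recipient 1 or GOF recipient 2 (adjusted p = 0.0928, 0.0638 and 0.115). Ms4a1, the B cell surface protein CD20, was at −0.76 ± 0.19 and did not pass (0.0988). Leaving out WT 1, WT 2, GOF 1 or GOF 2 gave 8, 7, 1 and 0 calls, and DESeq2 called 5.

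Antibody transcripts were among the largest falls, with 12 called lower at a median of −2.42. Igkc, the constant part of the kappa light chain (chromosome 6, 70726435 to 70726966), was at 142 and 147 CPM in the WT and 65.1 and 62.5 CPM in the GOF recipients, and it fell by 1.17 (SE 0.12, edgeR adjusted p = 0.00481). Ighg2c, the constant part of the IgG2c heavy chain (chromosome 12, 113285325 to 113288932, minus strand), had 7.67 and 6.75 CPM in the WT and 1.48 and 1.15 CPM in the GOF recipients, and fell by 2.43 (SE 0.28, 0.00547). Replicates lay close together in both genes, and both kept the call without any 1 library, as did Jchain, which joins the units of IgA and IgM (66.5 and 58.2 CPM in the WT and 28.8 and 20.7 CPM in the GOF recipients; −1.32 ± 0.16, 0.00971), and the heavy chain variable genes Ighv8-12 and Ighv2-2 (−2.996 ± 0.32 and −2.41 ± 0.34). Igha, the IgA heavy chain, and Ighg2b fell by 1.28 and 1.74, but neither was called without GOF recipient 1 (adjusted p = 0.161 and 0.141) or without GOF recipient 2 (0.184 and 0.145). The heavy chain constant genes resemble one another, as do the variable genes, so the sharing of reads within each family is uncertain.

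Not every antibody gene was low. Of 20 plasma cell and constant region genes, 5 fell and the median was −0.58, with 16 negative and 4 positive. Ighg3, the IgG3 heavy chain, was at 0.667 and 1.34 CPM in the WT and 0.627 CPM in GOF recipient 1 but 37.8 CPM in GOF recipient 2. That single library set its log2 fold change of 4.24 ± 2.67 (edgeR adjusted p = 0.694), which was −0.67 without it. Ighm, the IgM heavy chain, was at 110.2 and 236 CPM in the WT and 82.8 and 69.9 CPM in the GOF recipients, with WT recipient 2 above the other 3 libraries, and did not pass (−1.18 ± 0.47, 0.503).

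The 12 genes of antigen presentation by MHC class II were lower in both GOF libraries than in both WT libraries without exception, and their median was −0.77. Over all genes tested, the groups did not overlap in 42.7%, a share that counts both directions. EdgeR called 0 of them, although all 12 had an unadjusted p under 0.05, and DESeq2 called 5 and limma voom 0. H2-Aa, the class II alpha chain, was at 639 and 837 CPM in the WT and 491 and 339 CPM in the GOF recipients (−0.83 ± 0.21, edgeR adjusted p = 0.124), and H2-Eb2 had the smallest p (−1.33 ± 0.27, 0.0529). EdgeR called 9, 2, 2 and 0 of the 12 with WT 1, WT 2, GOF 1 or GOF 2 left out.

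Dendritic cells, which carry these molecules to T cells, had 4 of 19 genes among the falls. These were Flt3, Itgae, Itgax and the chemokine Ccl22, and the median of the list was −0.92. Flt3, the receptor for the growth factor of dendritic cells, was at 14.8 and 15.2 CPM in the WT and 6.99 and 5.82 CPM in the GOF recipients (−1.21 ± 0.19, edgeR adjusted p = 0.022). Itgae, the CD103 integrin of conventional dendritic cells and of T cells resident in epithelium, was at 23.3 and 30.4 and 10.6 and 11.3 CPM (−1.29 ± 0.17, 0.0123). Itgax, the CD11c integrin of dendritic cells and alveolar macrophages, was at 169 and 256 and 80.98 and 98.03 CPM (−1.24 ± 0.20, 0.043). The GOF libraries were low and close to each other in all 3. Wdfy4, needed for cross-presentation by dendritic cells, fell by 0.93 (0.0158), and like Itgae it kept the call in each fit without 1 library. Flt3 was not called without GOF recipient 2 (adjusted p = 0.0569), nor Itgax without GOF recipient 1 or GOF recipient 2 (0.495 and 0.209). With WT 1, WT 2, GOF 1 or GOF 2 left out, edgeR called 12, 6, 2 and 1 of the 19.

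The most abundant gene to fall was Chil3 (chromosome 3, 106147554 to 106167564, minus strand), a chitinase-like protein that alternatively activated and alveolar macrophages secrete. It was at 1090.3 and 1669 CPM in the WT recipients and 364 and 354 CPM in the GOF recipients. The 2 GOF libraries were nearly equal and far below both WT libraries, and Chil3 fell by 1.94 (SE 0.22, edgeR adjusted p = 0.00547) and kept the call in each fit without 1 library. Mmp12, the macrophage elastase, was at 133 and 175 CPM in the WT and 59.3 and 62.04 CPM in the GOF recipients (−1.34 ± 0.15, 0.00547) and kept it likewise.

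The 250 bases before the RefSeq start of 3 genes that fell and of the epithelial gene Bpifa1, which rose, are printed 5′ to 3′ on the strand of the gene (GRCm38.p6), with motif matches in capitals, because STAT factors and the myeloid factor PU.1 bind short sites of known letters. The windows are chr3:106167565-106167814 (minus strand) for Chil3, chr7:128129300-128129549 (plus strand) for Itgax, chr9:7344147-7344396 (plus strand) for Mmp12 and chr2:154142630-154142879 (plus strand) for Bpifa1.
Chil3: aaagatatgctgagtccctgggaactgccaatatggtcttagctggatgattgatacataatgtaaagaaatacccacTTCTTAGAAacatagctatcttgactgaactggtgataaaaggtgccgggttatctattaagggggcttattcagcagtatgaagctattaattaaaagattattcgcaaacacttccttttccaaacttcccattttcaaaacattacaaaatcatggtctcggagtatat
Itgax: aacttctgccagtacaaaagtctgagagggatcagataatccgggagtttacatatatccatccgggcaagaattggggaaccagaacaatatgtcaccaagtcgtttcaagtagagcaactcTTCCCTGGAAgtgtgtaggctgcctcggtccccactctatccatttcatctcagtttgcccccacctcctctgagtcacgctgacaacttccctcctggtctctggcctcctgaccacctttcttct
Mmp12: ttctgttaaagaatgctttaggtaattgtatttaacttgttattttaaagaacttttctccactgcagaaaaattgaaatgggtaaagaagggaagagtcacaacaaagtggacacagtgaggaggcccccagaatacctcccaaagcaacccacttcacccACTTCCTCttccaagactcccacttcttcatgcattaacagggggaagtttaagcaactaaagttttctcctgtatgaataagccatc
Bpifa1: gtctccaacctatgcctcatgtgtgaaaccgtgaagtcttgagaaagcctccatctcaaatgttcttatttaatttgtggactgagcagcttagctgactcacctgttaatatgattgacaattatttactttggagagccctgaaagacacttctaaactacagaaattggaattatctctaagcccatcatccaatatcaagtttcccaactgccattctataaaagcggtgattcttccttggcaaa
The capitals mark TTCNNNGAA in Chil3 at −172 to −164 from the start, TTCNNNNGAA in Itgax at −127 to −118, and GAGGAAGT, on the reverse strand, in Mmp12 at −88 to −81, while Bpifa1 held no match to the motifs searched. TTCNNNGAA was found in 10 of the 62 genes that fell and had a RefSeq promoter entry (16.1%) and in 6.11% of the 12512 tested genes with an entry, and TTCNNNNGAA in 4 of 62 (6.45%) and in 4.58%. The 3 promoters of falling genes were picked for holding a match, whereas 14 of the 62 held either STAT form (22.6%), beside 10.2% of the 12512. GAGGAAGT was found in 4 of 62 (6.45%) and in 2.57% of the 12512. The E-box CACGTG was in 3.23% of the 62 and 7.88% of the 12512, the D-box TTATGNAA in 1.61% and 2.01%, and the MEF2 site CTANNNNTAG in 0 of the 62 and 2.73%. Of the 19 genes that rose and had an entry, 2 held the D-box (10.53%, Mybphl and Cyp2a5), 1 each TTCNNNGAA, the E-box, GAGGAAGT and the MEF2 site (5.26%), and 0 TTCNNNNGAA. Both strands were searched, and a match is a description of letters, not of binding. No promoter of the 62 held both STAT forms, which 0.456% of the 12512 did.

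Of 18 genes of alternatively activated macrophages that were tested 2 fell, Chil3 and the chemokine Ccl22, which was already counted with the dendritic cells. The median was −1.38, and 13 of the 18 were lower in both GOF libraries than in both WT libraries. Of all genes tested, 42.7% had groups that did not overlap, counting both directions. Arg1, arginase 1, was at 63.7 and 105 CPM in the WT and 30.3 and 19.4 CPM in the GOF recipients (−1.75 ± 0.37, edgeR adjusted p = 0.215), and Chil4, a close relative of Chil3, at 58.4 and 112 and 11.96 and 11.2 CPM (−2.87 ± 0.39, 0.104). The groups did not overlap in either, and both passed with DESeq2 (adjusted p = 0.0232 and 5.58e-07) and limma voom (0.0409 and 0.0141). Retnla, another secreted marker of the state, overlapped between the groups, at 810.1 and 1470.3 CPM in the WT and 849 and 576 CPM in the GOF recipients (−0.67 ± 0.32, 0.49). EdgeR called 14, 5, 1 and 1 of the list with WT 1, WT 2, GOF 1 or GOF 2 left out.

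Among 16 CC chemokines tested, 3 fell, Ccl22 already counted above among them, and 0 rose, and the median was −0.62. Ccl8, a monocyte and T cell attractant, was at 34.9 and 41.2 CPM in the WT and 20.2 and 17.5 CPM in the GOF recipients (−1.002 ± 0.15, edgeR adjusted p = 0.0181) and was called whichever library was left out. Ccl22, a ligand of CCR4 on T helper 2 and regulatory T cells, was at 33.6 and 48.99 CPM in the WT and 18.8 and 15.6 CPM in the GOF recipients (−1.26 ± 0.19, 0.0267), and Ccl9 at 101 and 132 and 67.7 and 62.4 CPM (−0.83 ± 0.15, 0.0351). Both were lower in both GOF libraries, but neither was called without GOF recipient 1 (adjusted p = 0.117 and 0.0813) or GOF recipient 2 (0.144 and 0.111). The eosinophil attractants Ccl11 and Ccl24 and the CCR4 ligand Ccl17 did not pass (−1.53 ± 0.51, −2.33 ± 1.03 and −1.48 ± 0.41; edgeR adjusted p = 0.398, 0.58 and 0.281). In Ccl24 WT recipient 2 was at 27.3 CPM against 6.19 CPM in WT recipient 1 and 3.001 and 3.68 CPM in the GOF recipients. Leaving out WT 1, WT 2, GOF 1 or GOF 2 gave 9, 5, 1 and 1 calls among the 16.

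Blood-borne myeloid cells gave few calls. Ccr2, the receptor that brings monocytes into tissue, was at 125 and 179 CPM in the WT and 73.95 and 75.3 CPM in the GOF recipients and fell by 1.02 (edgeR adjusted p = 0.032), the only one of 16 monocyte and interstitial macrophage genes to pass, and it did not pass without GOF recipient 1 or 2 (adjusted p = 0.286 and 0.169). The median of that list was −0.19, and C1qa, a complement gene of interstitial macrophages, was at −0.16 ± 0.15 with overlapping groups. Retnlg, a product of neutrophils, fell by 1.21 (0.022; 34.2 and 43.8 CPM in the WT and 19.1 and 14.2 CPM in the GOF recipients), while S100a8, the most used neutrophil marker, did not pass (−0.39 ± 0.24, 0.619), and over 13 neutrophil genes, with Retnlg as the 1 call, the median was −0.39. With WT 1, WT 2, GOF 1 or GOF 2 left out, 4, 2, 3 and 1 neutrophil genes were called. In the alveolar macrophage list Itgax and Chil3 fell, 2 of 15 genes, and the median was −0.21. The list was mixed in direction. It had 9 negative members, 7 of them at an unadjusted p under 0.05, and 6 positive members, 3 of them at that level. The positive members took in Cidec and Fabp4, which are also in the list of fat genes given below, where all 11 were positive. Mmp25, a membrane metalloproteinase of leukocytes, was at 11.7 and 15.7 CPM in the WT and 4.21 and 4.51 CPM in the GOF recipients and kept its call throughout (−1.65 ± 0.22, 0.0123).

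Of 11 eosinophil genes edgeR called 0, with 7 at an unadjusted p under 0.05, DESeq2 called 3 and limma voom 0, and the median was −0.96. Prg2, the major basic protein of eosinophil granules, was at 1.86 and 5.93 CPM in the WT and 0.403 and 0.165 CPM in the GOF recipients, the latter being 9 and 3 counts (−3.70 ± 0.69, edgeR adjusted p = 0.0594), and Epx, eosinophil peroxidase, had 3 and 4 counts in the WT and 0 and 0 in the GOF recipients. Prg2 passed without WT recipient 1 or WT recipient 2 (adjusted p = 1.45e-14 and 0.0328). With WT 1, WT 2, GOF 1 or GOF 2 left out, edgeR called 6, 1, 0 and 0 of the 11 eosinophil genes, and 2 with the replicate number as a block. In mast cells and basophils 0 of 10 genes passed with edgeR, DESeq2 or limma voom, 3 had an unadjusted p under 0.05, all positive, and the median was 0.13. Of the 25 myeloid and dendritic genes that fell, 14 calls ended without GOF recipient 1 (edgeR adjusted p = 0.0592 to 0.495), 16 without GOF recipient 2 (0.0569 to 0.209), 4 without WT recipient 2 (0.0513 to 0.0794) and 0 without WT recipient 1. Of the 17 general leukocyte genes 12, 11, 7 and 0 ended in the same order of libraries (0.0503 to 0.207, 0.0537 to 0.130, and 0.05005 to 0.120), and the actin regulator Dock2 and the adaptor Sla kept the call throughout.

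**Figure D4:**
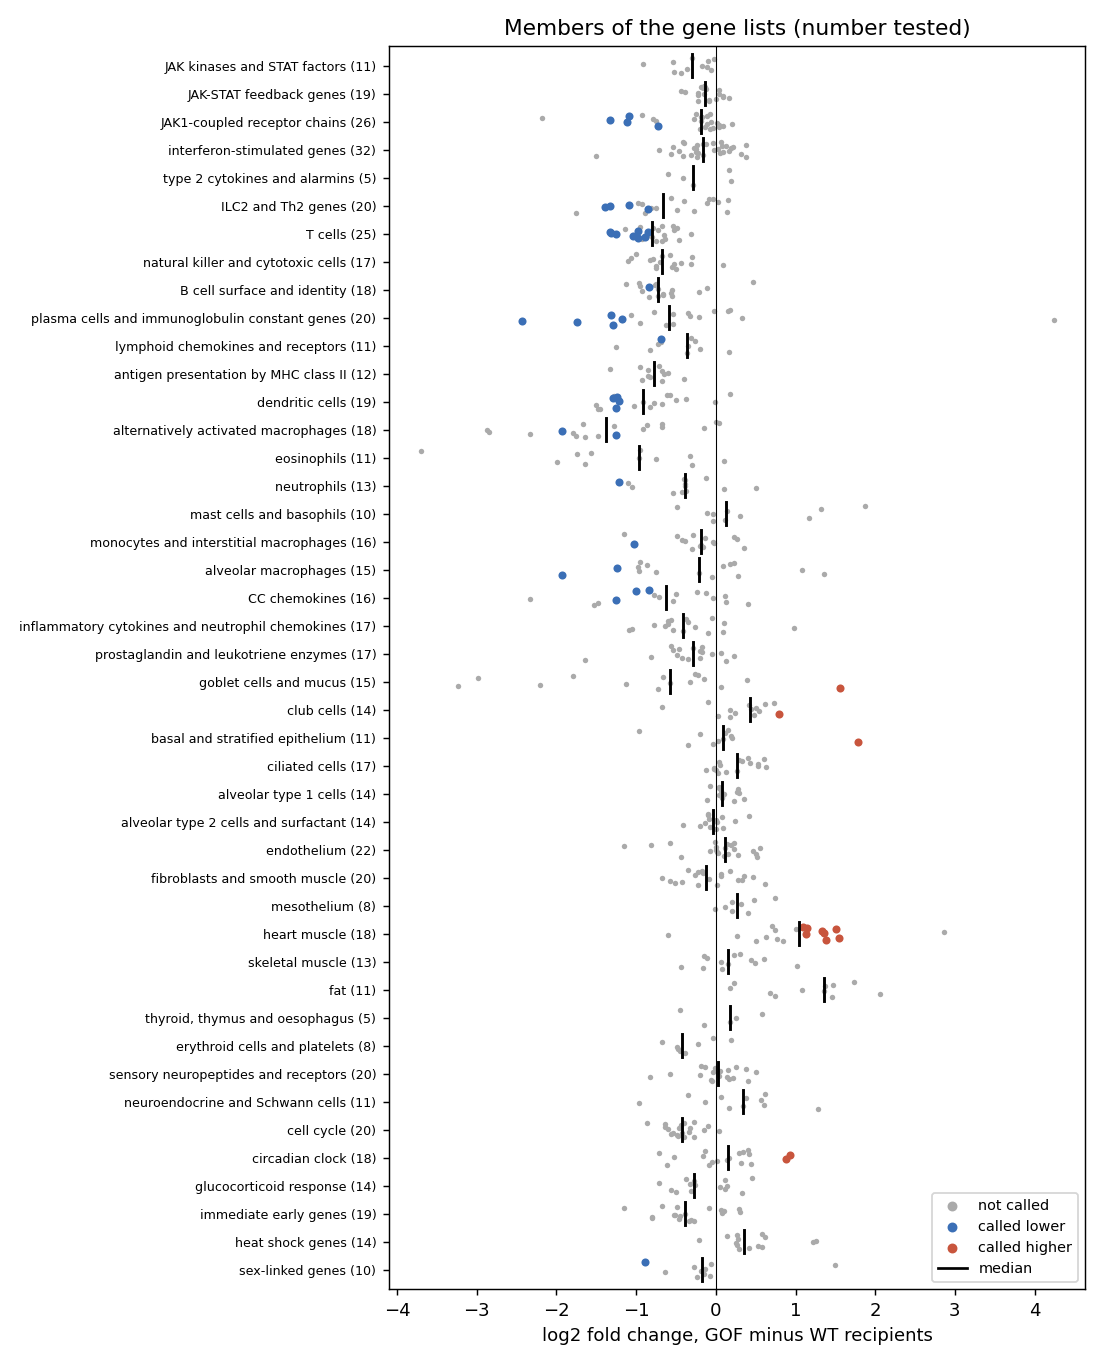
Log2 fold changes of the members of each gene list (points; called genes filled in colour) with the median of the list (line) on a horizontal axis in log2 units. Lists of lymphocytes, dendritic cells and alternatively activated macrophages lie left of 0, alveolar, endothelial and sensory lists around 0, and heart muscle and fat right of 0.

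Of 15 genes of mucus-making goblet cells, which interleukin 13 induces, 0 fell and 1 rose in edgeR, but 3 had log2 fold changes beyond −2 that missed the threshold. Muc5ac, the inducible airway mucin, was at 72.96 and 133 CPM in the WT and 13.2 and 12.7 CPM in the GOF recipients (−2.99 ± 0.35, edgeR adjusted p = 0.0587). Clca1, a secreted protein of goblet cells, was at 448 and 726 and 79.6 and 44.9 CPM (−3.23 ± 0.41, 0.0686), and the mucus protein Fcgbp at 50.9 and 89.9 and 15.4 and 14.9 CPM (−2.21 ± 0.30, 0.0591). The groups were far apart in these 3, and DESeq2 called them (adjusted p = 1.45e-31, 1.50e-06 and 7.32e-17), as did limma voom (0.00889, 0.00683 and 0.0214). EdgeR called them without WT recipient 1 (adjusted p = 6.78e-58, 1.11e-19 and 6.08e-38) and without WT recipient 2 (5.66e-15, 0.00591 and 8.94e-10), but not without GOF recipient 1 (0.826, 0.0871 and 0.822) or GOF recipient 2 (0.452, 0.109 and 0.46). Muc5b, the resting airway mucin, was at −0.66 ± 0.15 (0.0838). Over the 15 genes the median was −0.58 with 12 negative. In 7 both GOF libraries were lower than both WT libraries, and in 2 they were higher. The groups did not overlap in 42.7% of all genes tested. EdgeR called 4 of the list without the robust prior, DESeq2 called 5 and limma voom 4. The calls of DESeq2 and limma voom took in Bpifa1, the member that rose.

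The rise was that of Bpifa1 (chromosome 2, 154142880 to 154149219), a surfactant-like defence protein secreted by the upper airway epithelium, whose promoter is printed above. It was at 103 and 116 CPM in the WT recipients and 336 and 306 CPM in the GOF recipients. Both GOF libraries were far above both WT libraries, and Bpifa1 rose by 1.56 (SE 0.14), with the smallest adjusted p of the experiment (edgeR adjusted p = 0.00258), and was called whichever library was left out. Krt15, a keratin of basal cells, rose from 1.71 and 1.77 CPM to 7.30 and 4.62 CPM (1.78 ± 0.31, 0.0304), but not without GOF recipient 1 (adjusted p = 0.227). Cyp2a5, a detoxifying enzyme of club cells, was at 23.5 and 29.4 CPM in the WT and 44.7 and 46.5 CPM in the GOF recipients (0.79 ± 0.14, 0.0351), and was not called without GOF recipient 1 or 2 (adjusted p = 0.0571 and 0.0694).

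The rest of the lung lining and structure gave few calls. Club cell genes had a median of 0.42 with 12 of 14 positive and Cyp2a5 as the 1 call. Of the 14, 7 had an unadjusted p under 0.05, all of them higher, and DESeq2 called 3 and limma voom 0. Ciliated cells (median 0.27, 17 genes), alveolar type 1 cells (0.08, 14 genes), alveolar type 2 cells (−0.04, 14 genes), endothelium (0.11, 22 genes), fibroblasts and smooth muscle (−0.13, 20 genes) and mesothelium (0.26, 8 genes) had 0 genes past the edgeR threshold, with 7, 1, 0, 8, 5 and 4 at an unadjusted p under 0.05. DESeq2 called 1, 0, 0, 2, 0 and 1 of these lists and limma voom 0 of each. With WT 1 left out edgeR called 4 endothelial genes, 4 of fibroblasts and smooth muscle and 1 of alveolar type 2 cells, with WT 2 left out 1 of mesothelium, and with GOF 2 left out 1 of fibroblasts and smooth muscle. Foxj1, the master factor of ciliated cells, was at 111 and 125 CPM in the WT and 170.0 and 167 CPM in the GOF recipients (0.52 ± 0.13, edgeR adjusted p = 0.0981).

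Heart muscle genes were among the rises. Of 18 tested 8 were called, all higher, and the median was 1.05, and 13 of the 30 genes that rose belonged to heart or striated muscle. Tnnt2, cardiac troponin T (chromosome 1, 135836354 to 135852260), was at 39.9 and 49.2 CPM in the WT and 102 and 87.3 CPM in the GOF recipients (1.10 ± 0.14, edgeR adjusted p = 0.0114). Myl7, the atrial light chain, was at 17.7 and 23.4 and 59.1 and 45.4 CPM (1.36 ± 0.18, 0.0158), and Pln, phospholamban, the brake on the calcium pump, at 7.72 and 6.84 and 19.8 and 16.8 CPM (1.34 ± 0.18, 0.0123). Both GOF libraries were high in these 3, which kept the call without any 1 library, but not so in all heart genes. Myh6, a heart myosin heavy chain and an abundant gene of the list, overlapped at 94.4 and 173 CPM in the WT and 159.6 and 254 CPM in the GOF recipients (0.63 ± 0.43, edgeR adjusted p = 0.682). The summed list came to 322 and 449 CPM in the WT and 696 and 701 CPM in the GOF recipients. Sln, Csrp3, Tnni3, Myl4, Mybphl, Tcap and Hspb7 were not called without GOF recipient 1, and 10 of the 13 muscle calls ended there (edgeR adjusted p = 0.0513 to 0.298) and 3 without GOF recipient 2 (0.0561 to 0.0695). EdgeR called 9, 14, 3 and 8 of the list with WT 1, WT 2, GOF 1 or GOF 2 left out.

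Pulmonary veins of the mouse are sheathed in heart muscle, and fat, thymus and oesophagus lie next to the lung, so the markers of these tissues were read beside those of the heart. Fat genes had 0 of 11 called by edgeR and limma voom and 5 by DESeq2, with 7 at an unadjusted p under 0.05, all 11 positive, a median of 1.36 and summed levels of 97.5 and 122 CPM in the WT and 197 and 266 CPM in the GOF recipients. Cidec, a protein of fat droplets, was at 4.48 and 5.93 CPM in the WT and 10.2 and 16.6 CPM in the GOF recipients (1.36 ± 0.26, edgeR adjusted p = 0.0505), and Adipoq, adiponectin, at 3.62 and 5.12 and 7.57 and 16.5 CPM (1.46 ± 0.39, 0.204). With WT 1, WT 2, GOF 1 or GOF 2 left out, edgeR called 6, 4, 3 and 0 fat genes. Skeletal muscle (median 0.16, 13 genes, 1 at an unadjusted p under 0.05) and thyroid, thymus and oesophagus (0.18, 5 genes, 0 at that level) had 0 calls with edgeR, DESeq2 and limma voom (1 skeletal muscle gene with WT 2 left out), and 9 of the 14 members of the last list, Rag1 and Krt13 among them, had too few counts for the test. The summed heart and fat lists were thus higher in the same 2 libraries in which the leukocyte genes were lower, and their part in those results was not tested.

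Of 18 clock genes 2 rose and 0 fell, and the median was 0.15 with 11 positive. Nr1d1 (chromosome 11, 98767932 to 98775333, minus strand), which encodes the repressor REV-ERB alpha, was at 138 and 101 CPM in the WT and 251 and 201 CPM in the GOF recipients and rose by 0.93 (SE 0.17, edgeR adjusted p = 0.0404). Dbp, an output factor of the clock, was at 72.3 and 52.5 CPM in the WT and 123 and 105 CPM in the GOF recipients and rose by 0.88 (SE 0.15, 0.0351). Arntl, which encodes BMAL1 and peaks at the opposite time of day, had the opposite sign, at 13.002 and 10.4 CPM in the WT and 8.24 and 6.87 CPM in the GOF recipients, and did not pass (−0.62 ± 0.20, 0.228). DESeq2 called 2 of the 18 and limma voom 0, and edgeR called 4, 2, 0 and 1 with WT 1, WT 2, GOF 1 or GOF 2 left out, and 0 without the robust prior. Without GOF recipient 1 neither Nr1d1 nor Dbp was called (adjusted p = 0.17 and 0.19), and Dbp was not called without GOF recipient 2 (0.0597). Per1, also a glucocorticoid target, was at 227 CPM in WT recipient 1 against 74.1 CPM in WT recipient 2 and 66.7 and 115 CPM in the GOF recipients (−0.72 ± 0.81). The hour at which the lungs were taken was not given in the sources used here, and the part of the clock in the other results was not tested.

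Signs of cell state and handling gave no edgeR call. Of 20 cell cycle genes 19 were negative, with a median of −0.43 and 6 at an unadjusted p under 0.05, and Mki67, a mark of dividing cells, was at 52.8 and 80.2 CPM in the WT and 40.8 and 44.1 CPM in the GOF recipients (−0.64 ± 0.19, edgeR adjusted p = 0.215). DESeq2 called 1 of the 20 and limma voom 0, and edgeR called 11 with WT 1 left out and 0 with WT 2, GOF 1 or GOF 2 left out. Immediate early genes (19 genes, median −0.39) and heat shock genes (14 genes, median 0.35) had 6 and 5 members at an unadjusted p under 0.05, with 0 and 1 called by DESeq2 and 0 of either by limma voom, but 7 and 6 called by edgeR with WT 2 left out. Hspa1a, an inducible heat shock gene, was at 28.6 and 53.8 CPM in the WT and 116 and 74.6 CPM in the GOF recipients (1.22 ± 0.46, 0.48).

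Sensory nerve signals are the subject of the other experiments of the series. None of 20 neuropeptide and receptor genes passed with edgeR, DESeq2 or limma voom, 2 had an unadjusted p under 0.05, and the median was 0.03. Calca, which encodes the neuropeptide CGRP, was at 1.57 and 1.72 CPM in the WT and 1.97 and 1.70 CPM in the GOF recipients (0.17 ± 0.36, edgeR adjusted p = 0.905), and its receptor parts Calcrl and Ramp1 were at 0.14 ± 0.17 and 0.15 ± 0.18 (0.797 and 0.797). Trpv1 had 1 and 1 counts in the WT and 4 and 2 in the GOF recipients, so that a difference was not detectable at this depth.

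Xist, the RNA that coats the inactive X chromosome of female cells (chromosome X, 103460366 to 103483254, minus strand), had 122 and 132 CPM in the WT and 62.9 and 73.2 CPM in the GOF recipients, and it fell by 0.89 (SE 0.13, edgeR adjusted p = 0.0158) whichever library was left out. Ddx3y, expressed from the Y chromosome, was present beside it at 74.6 and 58.3 CPM in the WT and 57.6 and 67.4 CPM in the GOF recipients, with overlapping groups (−0.08 ± 0.14, 0.882). Each of the 4 libraries thus held both transcripts. The sex of donors and recipients was not given, and the part of this mixture in the results was not tested.

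A few transcripts were present in 1 group alone. B430305J03Rik (chromosome 3, 61362250 to 61365951, minus strand) had 0 counts in both WT recipients and 2.82 and 5.82 CPM in the GOF recipients, at least 30.2-fold higher against a floor of 3 counts per library. Pgam1-ps2, a processed pseudogene on chromosome 7 (27469771 to 27470535), was likewise at 0 in the WT recipients and at 1.88 and 5.77 CPM in the GOF recipients, at least 26.7-fold higher. Gm7332, a processed pseudogene on chromosome 5 (9260935 to 9261388), was at 1.14 and 2.58 CPM in the WT recipients and 0 in the GOF recipients, at least 12.5-fold lower. All 3 kept the call without any 1 library. Among named genes without an immune or muscle role, Npr3, the clearance receptor for natriuretic peptides, rose by 1.02 (54.3 and 43.6 CPM in the WT and 99.6 and 97.7 CPM in the GOF recipients; edgeR adjusted p = 0.00971), and Fer1l6, of the otoferlin family, fell by 2.38 (9.19 and 12.4 and 2.24 and 1.87 CPM; 0.00516). Each was apart between the groups and kept its call throughout.

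The chimera libraries were lastly set beside the 10 other libraries of the series, which also received the allergen but are not labelled as chimeras and lie in tables of their own. These are levels without a test, since the experiments differ in more than genotype. Chil3 reached 2349 to 5143 CPM in the 10 other libraries, above both WT recipients as well as both GOF recipients, and Clca1 reached 1462 to 2772 CPM, again above all 4 chimera libraries. Muc5ac in the other libraries (104 to 199.6 CPM) took in WT recipient 2 but lay above the other 3 chimera libraries. Ptprc ranged from 177 to 338 CPM there, a range that held both WT recipients but neither GOF recipient. For Bpifa1 the range of 57.8 to 192 CPM held both WT recipients and lay below both GOF recipients, and for Tnnt2 (9.83 to 54.1 CPM) it was the same. Xist stood at 0.902 to 5.12 CPM in the other libraries, far below all 4 chimera libraries. B430305J03Rik and Pgam1-ps2 ranged from 0 to 7.16 and from 0 to 7.75 CPM in the other libraries, so that their absence was not particular to the WT recipients. Likewise Gm7332 ranged from 0 to 4.98 CPM there, so that its absence was not particular to the GOF recipients. For B430305J03Rik this rested on subcutaneous saline library 2 alone, at 0 CPM, and the median of the 10 other libraries was 4.62 CPM.

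**Figure D5:**
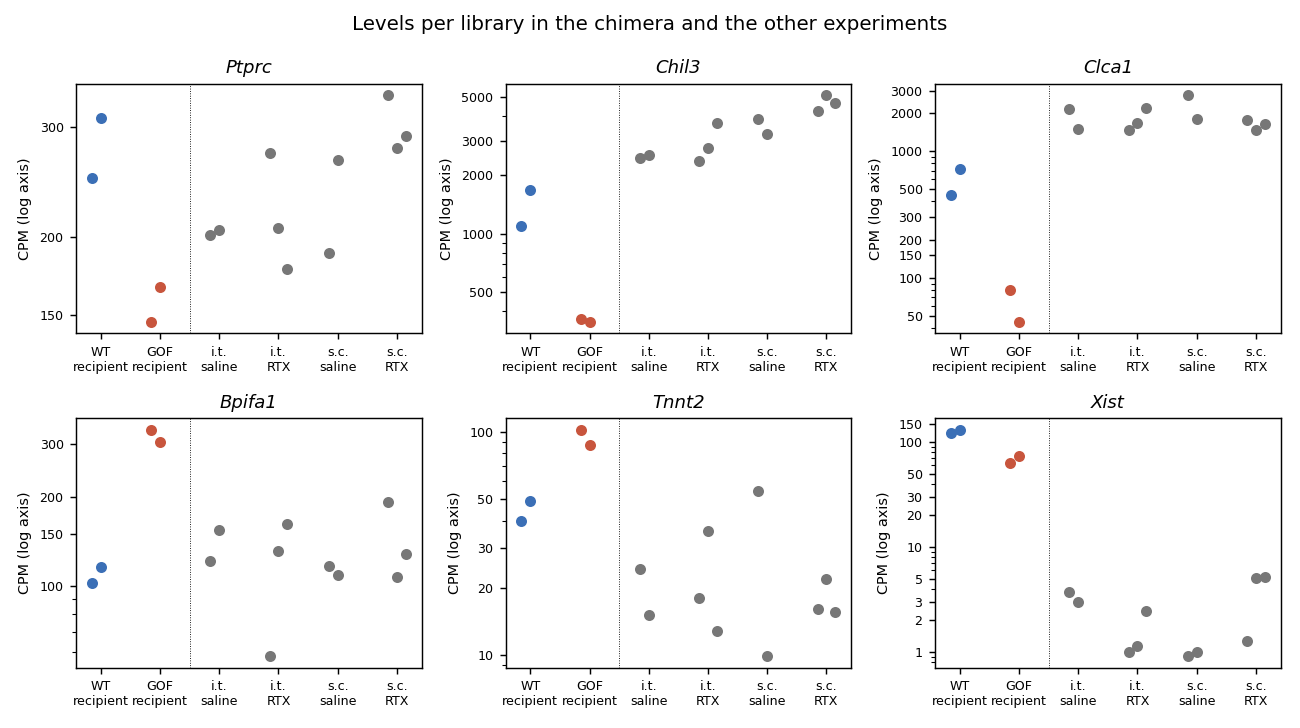
CPM per library (log axis) of 6 genes in the 2 WT recipients, the 2 GOF recipients and the 10 libraries of the other experiments (i.t., intrathecal; s.c., subcutaneous; RTX, resiniferatoxin, a toxin of sensory neurons), each point being 1 library. The GOF recipients have the lowest values of Ptprc, Chil3 and Clca1 and the highest of Bpifa1 and Tnnt2, and Xist separates the 4 chimera libraries from the rest.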

How the data were processed

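RNA of mouse lung was sequenced after enrichment of mRNA with oligo-dT beads, per the labels. Per the submitters' processing notes, the tools were FastQC 0.11.8, Trim Galore 0.6.6, STAR 2.7.5b and Salmon 1.2.1, and the build was GRCm38; for the annotation release and strand setting, the sources used here give nothing. The deposited values are estimated counts per gene, as Salmon gives, and 24.1% of those of this experiment were not whole. Total counts per library are given in the report.

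Estimated counts of the 4 chimera libraries were rounded and fitted with edgeR 4.0.16 (R 4.3.3) apart from the other tables, with TMM scaling, filterByExpr (minimum count 10, minimum total 15), a robust quasi-likelihood fit, and Benjamini-Hochberg adjustment over the 17298 genes tested, at a threshold of 0.05. Standard errors are the log2 fold change divided by the root of the F statistic. The procedure was tested on simulated data. Libraries of a group differed by more than counting noise (chi-square per degree of freedom 19.7 in WT and 17.7 in GOF recipients) and were counted separately; WT recipient 1 and GOF recipient 2 gave 14.2, below both within-group values. CPM per library are counts per 1e+06 of the total. Gene positions are from GENCODE M21, in which 53307 of 54347 identifiers matched in the same version, and promoters from RefSeq (GRCm38.p6; 81 of the 124 called genes had an entry). The 44 gene lists, the members and the rule for naming genes were chosen with earlier results of these data known. A few genes are not reported here. The rule named the 15 largest rises and falls among fully named genes of mean log2 CPM 1 or more, up to 6 called members of each list or the 2 with the smallest p, the JAK and STAT genes and a set of fixed genes of allergic lung. Any called gene could also be named; grouping of the called genes by role was done after their values were seen. The alternatives tried were DESeq2 1.42.0, limma voom (limma 3.58.1), scaling by DESeq2 size factors or by total counts, no filter or 1 CPM in 2 libraries as the filter, a fit without the robust prior or with the replicate number as a block, a threshold of 0.1, and fits with each library left out. Figures were drawn with matplotlib 3.10.9.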

Additional observations from a re-analysis of the deposited data

How the results depend on the processing

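The count of genes past the threshold was 124 in edgeR as reported, 127 with DESeq2 size factors, 157 with total counts alone and 151 with a filter of 1 CPM in 2 libraries. It rose to 807 with no filter on low counts, to 305 with DESeq2 and to 286 at an adjusted p of 0.1, and fell to 45 with limma voom and to 79 without the robust prior; of the 124 genes, 124, 123, 124, 39 and 70 were called there. Leaving out 1 library gave 83 to 919 genes. The cause of these shifts was not tested, and each fit without a library assumed that the lone library of a group varied like the other group. The replicate numbers gave no pairing: the correlation over genes of the deviations of same-numbered libraries was 0.0331 over 2 pairs. With the replicate number as a block 123 genes were called, 87 of the 124 among them.

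No called gene changed sign under the alternatives. Of the genes that were not called, only a chosen set was followed for its sign, not all genes tested. Among those followed, 14 turned sign with 1 library left out, with these lowest and highest log2 fold changes over the 4 fits: Calcb −0.34 to 0.64, Cish −0.21 to 0.048, Ddx3y −0.23 to 0.093, Ighg3 −0.67 to 5.23, Il33 −0.86 to 0.24, Il6 −1.05 to 0.056, Itga2b −1.15 to 0.045, Jak3 −0.20 to 0.070, Per1 −1.30 to 0.28, Ramp1 −0.084 to 0.34, Socs1 −0.998 to 0.13, Socs3 −0.49 to 0.39, Stat2 −0.30 to 0.049 and Tslp −0.28 to 0.63. Ddx3y and Per1 turned without WT recipient 1, Cish, Il33, Il6, Itga2b, Jak3, Socs1, Socs3, Stat2 and Tslp without WT recipient 2, Ddx3y, Jak3, Ramp1, Stat2 and Tslp without GOF recipient 1, and Calcb, Cish and Ighg3 without GOF recipient 2. Il4, Il5, Il9, Il13, Epx and Trpv1 had too few counts for the test.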

Other observations

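Lists outside the comparison's main groups are given as values, without a test of the list. Inflammatory cytokines and neutrophil chemokines stood at a median of −0.42 on the log2 scale, and 0 of 17 were called by edgeR, DESeq2 and limma voom, with 5 at an unadjusted p under 0.05. Il1b, the inflammasome cytokine, was at 34.1 and 40.7 CPM in the WT and 26.4 and 21.2 CPM in the GOF recipients (−0.64 ± 0.15, edgeR adjusted p = 0.0981). Prostaglandin and leukotriene enzymes and receptors had a median of −0.28, with 0 of 17 called by these tools and 4 at an unadjusted p under 0.05; Ptgs2, the inducible cyclooxygenase, was at −0.56 ± 0.15 (0.119). With WT recipient 1 left out, edgeR called 6 and 3 members of these lists, and with GOF recipient 2 left out 1 and 0.

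Basal and stratified epithelium had a median of 0.10 over 11 genes, with Krt15 as the 1 call, and 2, 1, 0 and 1 calls with WT 1, WT 2, GOF 1 or GOF 2 left out. Glucocorticoid response genes (14 genes, median −0.27) had 1 at an unadjusted p under 0.05, erythroid and platelet genes (8 genes, median −0.42) had 0, and neuroendocrine and Schwann cell genes (11 genes, median 0.34) had 3. EdgeR, DESeq2 and limma voom called 0 of these 3 lists, but with WT recipient 1 left out edgeR called 1 glucocorticoid response gene, 3 erythroid and platelet genes and 1 neuroendocrine and Schwann cell gene, and with WT recipient 2 left out 5 glucocorticoid response genes. Sgk1, a glucocorticoid target, was at 171 and 119 CPM in the WT and 121 and 116 CPM in the GOF recipients, with WT recipient 1 above the other 3 libraries. Type 2 cytokines and alarm cytokines had 0 of 5 tested called by these tools and 0 at an unadjusted p under 0.05, with a median of −0.29, and edgeR called 1 with WT recipient 1 left out. Sex-linked genes had a median of −0.17 over 10 genes, with Xist as the 1 call.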
